A study of Homo sapiens with 4 samples.

Results

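Clustered histone genes encode the linker histone H1 and the core histones H2A, H2B, H3 and H4 from gene clusters on chromosomes 6 and 1. The array reads them with probe sets, small groups of oligonucleotides that can match more than 1 transcript. Clustered histone genes were taken as the probe sets whose only gene symbol in the platform annotation was that of such a gene. These symbols were H1-1 to H1-6, or began H2AC, H2BC, H3C or H4C with a number. This gave 51 probe sets for 45 genes, out of 41097 probe sets with 1 gene symbol for 19775 genes, and 54675 probe sets in all. The rule used names alone and no measured value, but this gene family was chosen with earlier results of these data known. By class, 7 probe sets read 6 H1 genes, 11 read 9 H2A genes, 15 read 14 H2B genes, 8 read 7 H3 genes and 10 read 9 H4 genes. Of the 70 protein-coding clustered histone genes that RefSeq lists, 43 had such a probe set. The remaining members were the pseudogenes H2AC5P and H4C10P. The HIST1 cluster on chromosome 6 held 42 of the 45 genes, the HIST2 cluster on chromosome 1 held H2BC21, the HIST3 cluster on chromosome 1 held H2AC25, and H2BC12L lay outside the clusters. A further 20 probe sets carried several symbols with a clustered histone gene among them and are given separately.

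The series asked how the level of AK4, a mitochondrial adenylate kinase, bears on gene expression in 2 human lung adenocarcinoma lines. RNA of 4 cultures was read on 4 Affymetrix HG-U133 Plus 2.0 arrays, 1 array per group. The groups were CL1-0 cells with a control vector, CL1-0 cells with an AK4 vector, CL1-5 cells with a non-silencing shRNA vector and CL1-5 cells with an AK4 shRNA vector. CL1-5 is a more invasive line derived from CL1-0, and cells of all 4 groups were stably transduced and kept in puromycin for 2 weeks. With 1 array per group there is no spread between replicates, so no difference below has a test, and each is a difference between 2 arrays. Whether a group was 1 clone or a pool of transduced cells is not given in the sources used here. The labels call the cells type II alveolar cells. Of 10 type II marker genes that could be read, 9, 8, 7 and 7 were above the floor, a signal of 6.93, on the 4 arrays in the order above. SLC34A2 was under it on all 4, SFTPD lay between 6.65 and 9.48, SFTPC between 24.0 and 30.8, and the summed signal of the 10 between 646 and 771. Brighter markers differed between the lines: LAMP3 read 210 and 160 in CL1-0 and was under the floor on both CL1-5 arrays, LPCAT1 read 101 and 127 in CL1-0 and 349 and 361 in CL1-5, and ETV5 lay between 158 and 269. Between the 2 control arrays, 9 markers were above the floor on at least 1. Of these, 7 were lower in CL1-5 and 2 higher, with a median log2 ratio of -0.75, while 44.0% of all genes were lower. The 4 AK4 probe sets were higher on the CL1-5 non-silencing array than on the CL1-0 control array (log2 ratios from 2.63 to 3.20). They were lower on the AK4 shRNA array than on its control (-1.25 to -0.88). On the array labelled AK4 vector they were not higher than on its control (-0.25 to -0.05). Whether these probe sets can read the transcript of the vector was not checked. The directions given for CL1-0 therefore rest on the label of the AK4 vector array.

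Most clustered histone genes are replication-dependent: their mRNA is made in S phase, when new DNA needs new nucleosomes, and ends in a conserved stem-loop bound by SLBP in place of a poly(A) tail. Nucleosomes hold H2A, H2B, H3 and H4, and H1 binds the linker DNA between them. Standard Affymetrix labelling primes from poly(A), so an array of this kind reads the polyadenylated part of these transcripts. H1-2, H2AC6, H2BC5, H2BC12 and H2BC21 are among the members known to be made in polyadenylated form as well. The coding sequences of a class are near copies of each other, so a probe set can also read its neighbours. Of the 51 probe sets, 9 had names ending in _x_at and 4 in _s_at, the manufacturer's marks for probes shared with other transcripts, and these readings are uncertain as to the gene.

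Promoter sequence is shown because it is where these genes are known to share signals, and it is given for the genes on which the results turn. Sequences are from RefSeq on GRCh38.p14 and are written 5′ to 3′ on the strand of the gene, up to the base before its start. Capitals mark 4 sets of letters that were searched on both strands. They were the TATA box spelled TATAAA, the box of many histone promoters spelled CCAAT, the octamer bound by POU2F1 (also known as OCT1), spelled ATTTGCAT, and the H1 box of linker histone genes, spelled AAACACA. None of the 4 contains another. The first 4 are 150 bases before the start of the genes that were lowest with the AK4 vector, 1 from each of H1, H4, H3 and H2B.
H1-2 (chr6:26056471-26056620, minus strand): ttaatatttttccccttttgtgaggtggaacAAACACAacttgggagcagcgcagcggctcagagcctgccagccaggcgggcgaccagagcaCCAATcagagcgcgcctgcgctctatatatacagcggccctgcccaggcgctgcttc
H4C8 (chr6:26285535-26285684, minus strand): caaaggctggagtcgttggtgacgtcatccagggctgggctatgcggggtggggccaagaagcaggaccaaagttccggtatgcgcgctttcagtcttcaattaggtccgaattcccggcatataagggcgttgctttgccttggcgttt
H3C2 (chr6:26032100-26032249, minus strand): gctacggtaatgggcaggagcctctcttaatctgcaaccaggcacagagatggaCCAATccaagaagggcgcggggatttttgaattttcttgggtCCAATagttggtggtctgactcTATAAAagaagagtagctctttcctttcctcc
H2BC5 (chr6:26157971-26158120, plus strand): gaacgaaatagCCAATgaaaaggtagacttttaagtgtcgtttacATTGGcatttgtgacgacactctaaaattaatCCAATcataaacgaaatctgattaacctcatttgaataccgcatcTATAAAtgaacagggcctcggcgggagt
The H1-2 stretch held the H1 box 119 bases and CCAAT 57 bases before the start, and that of H3C2 held TATAAA at 32 bases with CCAAT at 54 and 96. H4C8 held none of the 4. The next pair are genes that differed less with AK4 vector: H2BC12, and H3C8, which read higher in CL1-5 than in CL1-0.
H2BC12 (chr6:27146859-27147008, minus strand): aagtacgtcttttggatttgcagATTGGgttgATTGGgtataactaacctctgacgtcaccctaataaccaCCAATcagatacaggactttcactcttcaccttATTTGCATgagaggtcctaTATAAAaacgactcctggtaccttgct
H3C8 (chr6:26271414-26271563, minus strand): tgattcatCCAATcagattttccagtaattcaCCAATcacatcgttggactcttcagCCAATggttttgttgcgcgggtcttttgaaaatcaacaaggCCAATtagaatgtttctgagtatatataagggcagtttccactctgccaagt
The last is the whole stretch of 245 bases between the starts of H2BC4 and H2AC6, which are transcribed away from each other. It is written on the plus strand, toward H2AC6.
H2BC4 to H2AC6 (chr6:26123927-26124171, plus strand): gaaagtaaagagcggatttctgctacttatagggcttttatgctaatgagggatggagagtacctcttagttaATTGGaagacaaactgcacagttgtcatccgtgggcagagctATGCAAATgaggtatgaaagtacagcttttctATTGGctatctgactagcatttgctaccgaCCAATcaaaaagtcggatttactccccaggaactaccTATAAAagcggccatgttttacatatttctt
It held the octamer on the minus strand, CCAAT on both strands and 1 TATAAA.

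In the 250 bases before the start, 40 of the 45 member genes had a RefSeq entry. H3C11, H2AC5P, H4C10P, H2BC12L and H4C1 had none. TATAAA stood in 27 of the 40 (67.5%) against 11.1% of all 27305 promoters, and CCAAT in 35 (87.5%) against 33.0%. The octamer stood in 16 (40%) against 1.66%. It was found in 6 of 8 H2A and 10 of 13 H2B promoters and in no H1, H3 or H4 promoter. Both strands were searched, so genes that start close together on opposite strands share sequence, and the same match can count for each. The octamer between H2BC4 and H2AC6 counted for both genes. These shares are therefore of promoters and not of separate sites. The H1 box stood in 6 of 6 H1 promoters and in no other member, against 4.95% of all. CCAAT was in 2 of 7 H4 promoters and in every promoter of the other classes. Among the 5 genes at least 2-fold lower with AK4 vector that had an entry, 3 held TATAAA and 4 held CCAAT, against 24 and 31 of the other 35. The TATAAA counted for H2BC4 was the one 31 bases before the start of H2AC6, on the strand of H2AC6. A match is a description of these letters and not a bound site.

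Signals are linear intensities after each array was scaled to a common trimmed mean, and values under the floor of 6.93 were not told apart. A probe set or gene counts as measured in a comparison when it was above the floor on at least 1 of the 2 arrays. A ratio with 1 array at the floor is a lower bound for that probe set. In bulk RNA, fewer cells of a kind (here, cells in S phase) and less RNA per cell cannot be told apart. Of the 51 probe sets, 23 were above the floor on all 4 arrays, 6 on 3, 10 on 2, 3 on 1 and 9 on none. Those on none were the probe sets of H2BC1, H2BC14, H2BC17, H3C1, H3C11, H4C1, H4C7 and H4C10P and 1 of the 2 of H2AC15. By array the count was 33 for CL1-0 control, 32 for CL1-0 AK4 vector, 36 for CL1-5 non-silencing and 32 for CL1-5 AK4 shRNA.

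In CL1-0, clustered histone probe sets read lower on the array labelled AK4 vector than on the control vector array, with the H2B, H1-2, H4C8 and H3C2 readings farthest down. Of 35 measured, 8 passed 2-fold downward and 0 upward. Over all measured probe sets, 1.72% passed it downward and 3.15% upward. The members' median log2 ratio was -0.40 against 0.02 over all, and 24 of 35 (68.6%) were below 0 against 45.4%. Without _x_at and _s_at probe sets the members' median was -0.20 with 60.9% below 0, and with no floor it was -0.14. By gene, 6 of 32 measured were at least 2-fold lower and 0 higher, against 1.16% and 3.22% of all genes. Of the 8 lower probe sets, 5 ended in _x_at or _s_at, and 3 remained without such probe sets: those of H1-2, H4C8 and H2BC4.

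**Figure D1:**
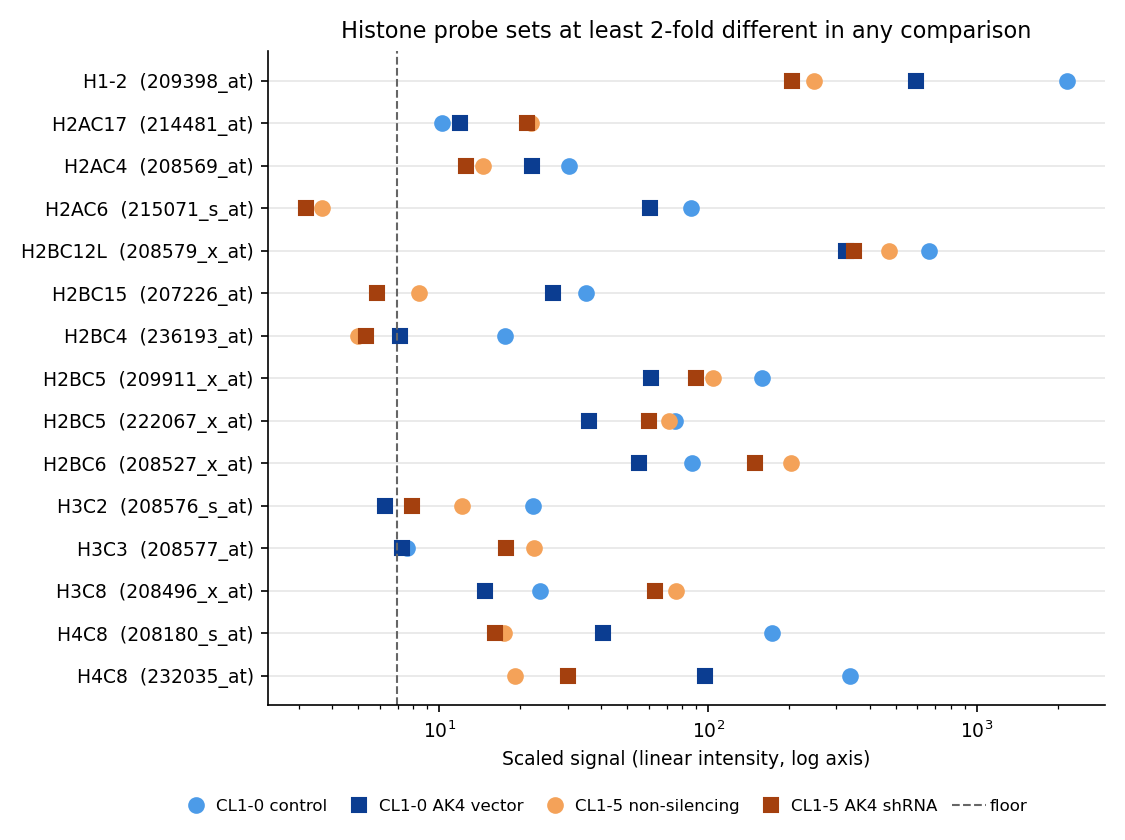
Scaled signal on a logarithmic axis of the 15 histone probe sets that differed at least 2-fold in any of the 3 comparisons, 1 point per array, with the floor as a dashed line. For H1-2 and both H4C8 probe sets the CL1-0 control array lies farthest right and the CL1-5 arrays farthest left, while for H3C8 and H2BC6 the CL1-5 arrays lie farthest right.

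Control probe sets also differed between the arrays. The scaled signal of BioB, a bacterial transcript added at hybridisation, was 783 with control vector and 307 with AK4 vector in CL1-0, and 106 and 99.1 on the CL1-5 arrays, and BioC was 1741, 679, 316 and 271. CreX, another added transcript, was 11251, 7981, 4362 and 4231, a smaller step between the CL1-0 arrays. The ratio of 3′ to 5′ probe sets of beta-actin was 6.04 and 6.54 on the CL1-0 arrays and 1.34 and 1.61 on the CL1-5 arrays, and that of GAPDH lay between 1.04 and 1.54. BioB thus ran highest on the CL1-0 control array and lowest on the CL1-5 arrays, the order also seen for H1-2 and H4C8, and the 3′ to 5′ ratio of beta-actin was alike on the 2 CL1-0 arrays. Their part in the histone values was not tested.

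The linker histone H1-2, a somatic H1 subtype, had a signal of 2159 with control vector, 594 with AK4 vector, and 247 and 205 on the CL1-5 arrays with non-silencing and AK4 shRNA. The CL1-0 control array stood above the other 3, and both CL1-5 arrays were low. The log2 ratio was -1.86 for AK4 vector, a 3.64-fold lower signal. The other H1 genes were dim. H1-4, another somatic subtype, read 13.5, 7.40, 6.35 and 6.27 on the arrays in the same order, with a log2 ratio of -0.87 in CL1-0 that became -1.04 under quantile normalization and -0.53 with the values as deposited. H1-3 read 9.84, 9.38, 15.3 and 16.7, and was higher on the CL1-5 arrays. H1-1 read 7.86, 8.71, 7.33 and 6.34, all close to the floor. H1-5 was under the floor on both CL1-0 arrays and read 9.03 and 7.80 on the CL1-5 arrays. The testis linker histone H1-6 read 7.29, 8.55, 13.3 and 12.7 with its brighter probe set, and its other probe set was above the floor only on the CL1-5 non-silencing array, at 7.48. In all, 1 of 5 measured H1 probe sets was at least 2-fold lower with AK4 vector, and the class median log2 ratio was -0.07.

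H2A probe sets with a single symbol differed little in CL1-0, and those with several symbols are given further below. Of 8 measured, 0 were at least 2-fold lower, 4 were below 0, and the median log2 ratio was -0.06. H2AC8 was lowest, at 18.8 with control vector and 10.6 with AK4 vector (log2 ratio -0.83). H2AC6 read 86.4 and 60.9 (-0.50). H2AC25, of the HIST3 cluster, read 128 and 145 (0.19), and H2AC14 41.5 and 48.5 (0.22). H2AC4 (30.3 and 22.2) and the pseudogene H2AC5P (16.8 and 13.6) were below 0, and H2AC16 was above the floor only on the CL1-5 arrays, at 9.24 and 9.86.

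H2B was the class with the lowest median in CL1-0: 11 of 12 measured probe sets were below 0, 4 were at least 2-fold lower, and the median log2 ratio was -0.80. Of these 4, only that of H2BC4 did not end in _x_at. Probe sets ending in _x_at or _s_at can read other transcripts as well, and no class median was taken without them. Among the measured probe sets with neither ending, those of H2BC3, H2BC12, H2BC13 and H2BC15 lay above -0.80. Those of H2BC4 and H2BC11 lay below it. H2BC5 was read by 2 probe sets, both ending in _x_at. The brighter gave 159, 61.5, 104 and 89.9 on the 4 arrays (CL1-0 log2 ratio -1.37). The other gave 75.2, 36.1, 71.7 and 60.4 (-1.06). For both, the AK4 vector array was the lowest of the 4. H2BC4 read 17.5, 7.16, 4.99 and 5.32. Only the CL1-0 control array stood well clear of the floor for it, and its log2 ratio of -1.29 became -0.90 with the values as deposited and -0.06 with a floor at the 60th percentile. H2BC12L read 663, 326, 471 and 349 with an _x_at probe set. Its log2 ratio of -1.02 became -0.93 under quantile normalization and -0.99 after loess, so it lies at the 2-fold limit. Among the other H2B probe sets, H2BC9 read 90.5 and 49.6 in CL1-0 (-0.87) and H2BC6 87.4 and 55.3 (-0.66), both with _x_at probe sets. H2BC21 of the HIST2 cluster read 37.2 and 21.7 (-0.78) with an _s_at probe set. H2BC11 read 12.3 with control vector and was under the floor with AK4 vector (a log2 ratio of -0.83 or lower). H2BC3 read 15.8 and 12.7 (-0.31) and H2BC15 35.0 and 26.5 (-0.40). H2BC12 read 1475 and 1265 and differed least of these, at -0.22. The H2B probe set above 0 was that of H2BC13, at 6.37 and 8.15, next to the floor.

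The H3 and H4 classes each held 1 gene that was past 2-fold lower with AK4 vector and others that were not. H3C2, read by an _s_at probe set, gave 22.3, 6.29, 12.1 and 7.89 on the 4 arrays. It was under the floor with AK4 vector, so its signal was at least 3.22-fold lower there, and with a floor at the 60th percentile the log2 ratio shrank from -1.69 to -0.41. H3C8 read 23.7 and 14.8 in CL1-0 (-0.68). H3C3 read 7.61 and 7.25 (-0.07). H4C8 was lower on both of its probe sets. The brighter gave 338, 97.3, 19.1 and 30.2 on the 4 arrays (CL1-0 log2 ratio -1.79). The dimmer, an _s_at probe set, gave 173, 40.7, 17.4 and 16.1 (-2.09). On both, the 4 arrays fell in the same pattern, highest in CL1-0 control and lowest in CL1-5. By contrast H4C11 read 62.8 and 73.7 in CL1-0 (0.23) and H4C9 10.6 and 10.8 (0.02). The highest signal of H4C4 was 7.89, of H4C13 7.38 and of H4C5 13.0, and H3C7 and the brighter probe set of H3C6 were under the floor on both CL1-0 arrays. Of the 4 measured H3 probe sets 1 and of the 6 measured H4 probe sets 2 were at least 2-fold lower, with medians of -0.37 and -0.09.

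**Figure D2:**
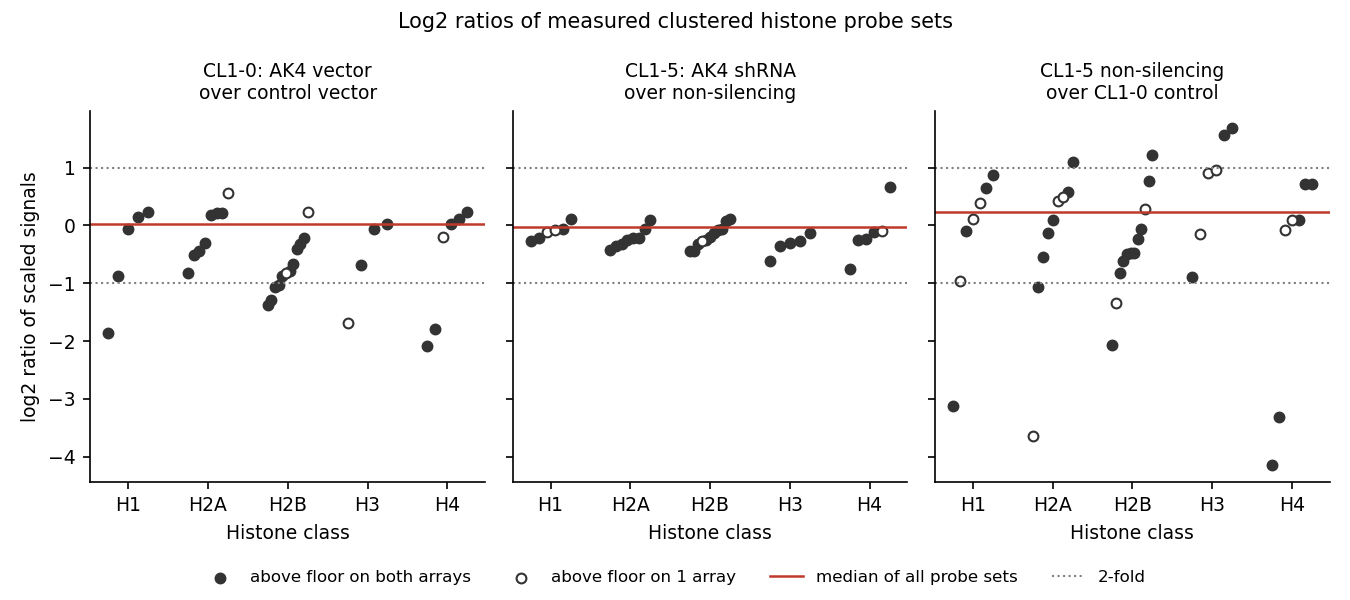
Log2 ratio of every measured histone probe set by class in the 3 comparisons, filled where both arrays were above the floor and open where 1 was, with the median over all probe sets in red and 2-fold as dotted lines. In CL1-0 the H2B points lie mostly below the median of all probe sets, and in CL1-5 the members lie between -0.75 and 0.66.

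The probe sets of several symbols leave the gene uncertain. Of 16 measured in CL1-0, 5 were at least 2-fold lower and 0 higher, with a median log2 ratio of -0.78. The lowest carried 11 symbols, those of H3C genes and H2AC7, and read 72.6 and 15.2 on the CL1-0 arrays (CL1-0 log2 ratio -2.25). A probe set for H3C4 and H2AC7 read 108, 26.5, 18.7 and 17.5 (-2.03). A probe set for H2BC11 and H2BC8 read 36.4 and 15.4 in CL1-0 (-1.24). One for H2AC18 and H2AC19 read 162 and 74.2 (-1.12), and others with these symbols stood at -0.76 and 0.33. One with 14 H4 symbols was level, with 2074 with control vector and 2179 with AK4 vector (0.07).

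In CL1-5, 0 of 36 measured histone probe sets passed 2-fold in either direction with AK4 shRNA. Over all probe sets 0.0857% were lower and 0.0651% higher by that measure, and over genes 0.0131% and 0.0914%, with 0 of 32 member genes in either. Most members read slightly lower: 31 of 36 (86.1%) were below 0 against 53.3% of all probe sets, and the median log2 ratio was -0.21 against -0.02. All 9 _x_at probe sets were below 0, with a median of -0.32, and the 23 measured _at probe sets had a median of -0.13. By class the medians were -0.10 for H1, -0.23 for H2A, -0.21 for H2B, -0.31 for H3 and -0.18 for H4. The lowest was H4C11, an _x_at probe set, 1.68-fold lower with AK4 shRNA than with the non-silencing vector (-0.75), and the next was H3C2 (-0.61). The highest was H4C8, at 0.66 with its brighter probe set, while its other probe set was at -0.12, so the 2 disagreed in sign. H1-2 stood at -0.27, the H2BC5 probe sets at -0.21 and -0.25, and H2BC12L at -0.43. H2BC4 was under the floor on both arrays. Of the several-symbol probe sets, 0 of 15 measured passed 2-fold. Among the gene lists described further below, 10 of 11 replication-independent histone, 29 of 39 DNA replication and 15 of 22 chaperone genes were also below 0. Genes for making histone mRNA gave 12 of 23, mitosis genes 9 of 20 and all genes 50.3%. The 2 CL1-0 arrays and the 2 CL1-5 arrays share no array, and 27 member genes were measured in both comparisons of AK4. Of these, 19 were below 0 with AK4 vector and 23 with AK4 shRNA, and 15 (55.6%) were below 0 in both, against 23.5% of the 13741 genes so measured. With shares that large in each comparison many genes fall below 0 in both without any relation, and none is read from this count. Of the rest, 0 were above 0 in both, 8 were above 0 with AK4 vector and below with AK4 shRNA, and 4 were the other way round.

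Between the lines, on the 2 control arrays, clustered histones passed 2-fold in both directions, as all probe sets did. No split particular to them is read from these counts. Of 41 measured probe sets, 4 passed 2-fold upward and 7 downward in CL1-5 non-silencing against CL1-0 control, where 21.1% of all probe sets passed it upward and 12.1% downward. By gene, 4 of 36 were higher and 6 lower, against 17.1% and 14.2% of all genes. The members' median log2 ratio was -0.07 and that of all probe sets 0.23. Each of these arrays is also the control of 1 AK4 comparison, so the values are given side by side and not related. The scaling mattered here: with the values as deposited the median of all probe sets was 0.89, and 12 member probe sets were higher and 5 lower. With arrays scaled to a common median it was -0.18, with 2 higher and 12 lower, and after quantile normalization it was 0.00, with 3 higher and 11 lower. The members' own median changed sign, from 0.59 with the values as deposited to -0.39 with a common median.

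The 6 genes at least 2-fold lower in CL1-5 were of every class but H3. H4C8 read 338 in CL1-0 control and 19.1 in CL1-5 non-silencing (log2 ratio -4.14), with its other probe set at -3.31. H2AC6 read 86.4 and 60.9 on the CL1-0 arrays and 3.67 and 3.20 on the CL1-5 arrays. Both CL1-5 values are under the floor, so the control arrays differed at least 12.5-fold. H1-2 read 8.73-fold lower (-3.13). H2BC15 read 35.0, 26.5, 8.39 and 5.86 on the 4 arrays (-2.06). Both CL1-0 arrays were above both CL1-5 arrays for these genes. H2BC4 was at least 2.52-fold lower but lost this with the values as deposited (-0.90) or a higher floor (-0.06). H2AC4 read 30.3, 22.2, 14.5 and 12.5 (-1.06), and was at -0.19 with the values as deposited and -0.86 with the higher floor. H1-4 (-0.97) and H3C2 (-0.88) came next.

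The 4 genes past 2-fold upward in CL1-5 were 2 H3 genes, 1 H2B gene and 1 H2A gene. H3C8 read 23.7, 14.8, 76.0 and 63.2 on the 4 arrays (log2 ratio between the control arrays 1.68) with an _x_at probe set. H3C3 read 7.61, 7.25, 22.6 and 17.7 (1.57), at 0.88 after loess and 0.43 with the higher floor. H2BC6 read 87.4, 55.3, 203 and 149 (1.22, or 0.73 when scaled to a common median), again with an _x_at probe set. In all 3 the CL1-5 arrays lay above the CL1-0 arrays. H2AC17 read 10.3 in CL1-0 control and 21.9 in CL1-5 non-silencing, 2.14-fold higher, and lay between 0.39 and 0.61 under quantile, common-median, loess and higher-floor settings. H3C7 (0.95), H3C6 (0.91), H1-6 (0.86) and H2BC9 (0.77) followed, with H3C7 and H3C6 under the floor on the CL1-0 control array. The several-symbol H4 probe set named above read 2074 in CL1-0 control and 456 in CL1-5 non-silencing (-2.18). Others with the same 14 symbols went the other way, 1 at 6.98 and 15.8 (1.18) and 1 at 50.8 and 75.0 (0.56).

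**Figure D3:**
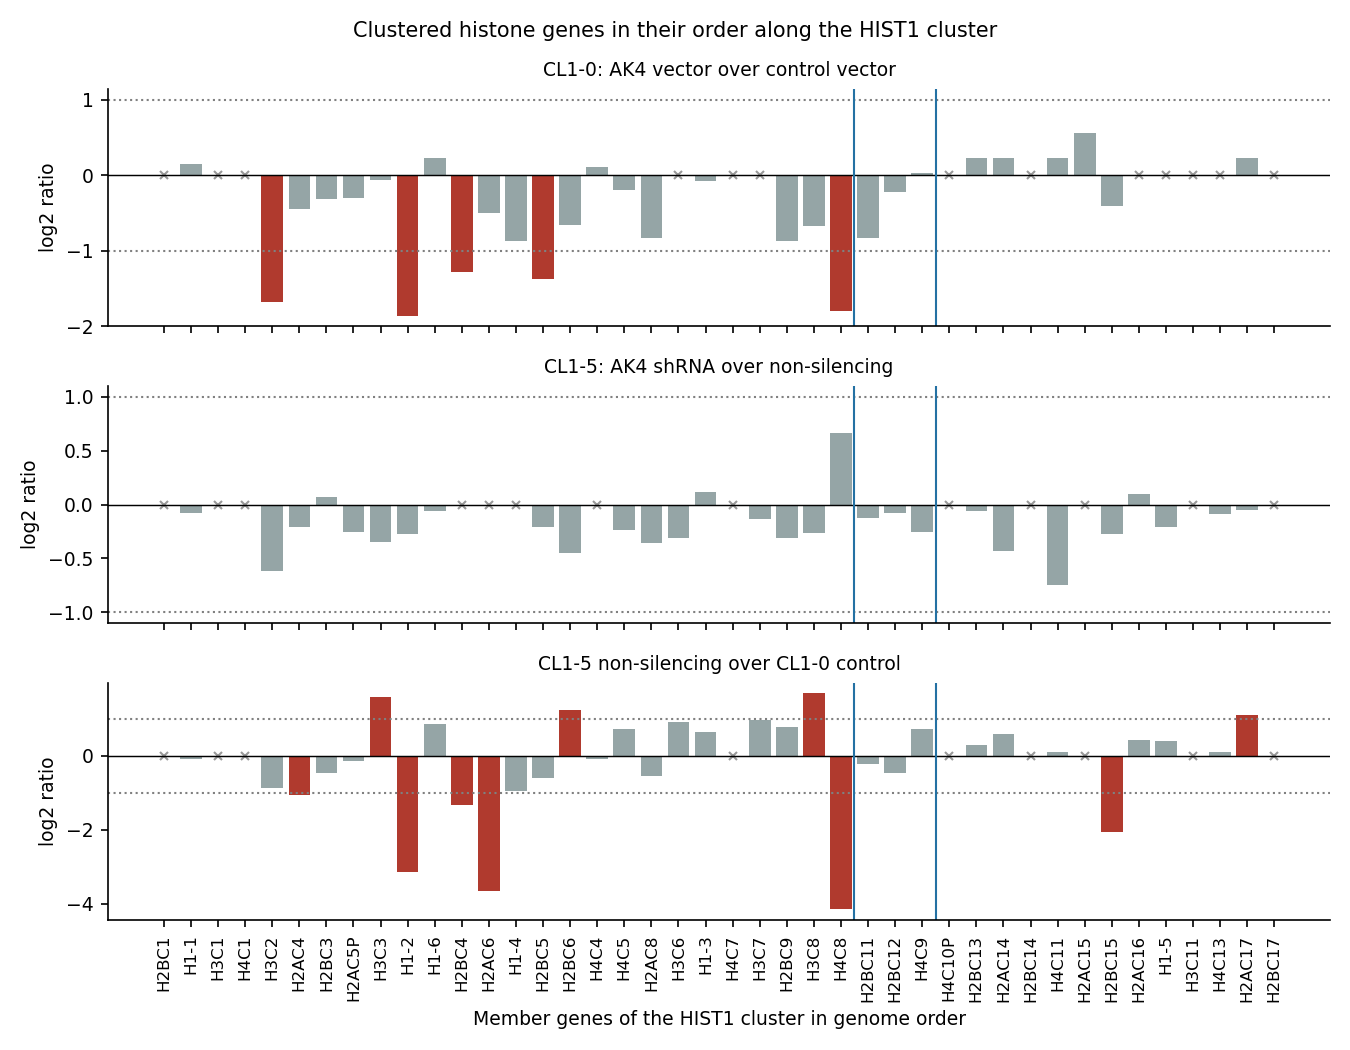
Log2 ratio of the 42 member genes of the HIST1 cluster in genome order in the 3 comparisons, with red bars at 2-fold or more, crosses for genes under the floor on both arrays and blue lines where neighbours lie more than 300000 bases apart. In CL1-0 the 5 red bars all lie left of the first blue line, in the block with 20 measured genes, against 3 and 6 in the next blocks. The limit of 300000 bases was chosen after the values were seen.

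Position in the HIST1 cluster was not part of the rule. Gaps of more than 300000 bases, a limit chosen after the values were seen, divide its histone genes into 3 blocks. In CL1-0, the first block, from H2BC1 to H4C8, had 20 measured member genes, of which 5 were at least 2-fold lower with AK4 vector and 17 were below 0, with a median log2 ratio of -0.58. The second block, H2BC11 to H4C9, had 3 genes with 0 past 2-fold. The third, from H4C10P to H2BC17, had 6 measured of 13 genes, with 0 at least 2-fold lower, 5 above 0 and a median of 0.23. With AK4 shRNA in CL1-5, genes below 0 numbered 15 of 18, 3 of 3 and 7 of 8 in the 3 blocks. Between the control arrays, the first block held 3 genes higher and 5 lower by 2-fold and the third held 1 of each, with 7 of its 8 measured genes above 0. Whether the blocks differ was not tested.

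The 18 other genes read between the members gave a local comparison. Of 13 measured in CL1-0, 0 were at least 2-fold lower with AK4 vector and 1 was higher, BTN3A2 of the butyrophilin family (log2 ratio 1.49), with a median of 0.02. Of 15 measured with AK4 shRNA, 0 passed 2-fold in either direction. Among clustered histone genes, 12 pairs start within 500 bases of each other on opposite strands. H2BC7 was paired with both H3C4 and H2AC7, at the same 222 bases, so these pairs share a stretch. Both genes were read in 4 pairs. In the H2BC4 and H2AC6 pair, whose shared sequence is printed above, the CL1-0 log2 ratios were -1.29 and -0.50, and both genes were under the floor on both CL1-5 arrays. In the H2AC15 and H2BC15 pair, 193 bases apart, the ratios were 0.56 and -0.40, and H2AC15 was above the floor only on the AK4 vector array, at 10.2. In the other 2 pairs, H2AC14 (0.22) and H2AC17 (0.22) were measured in CL1-0 while H2BC14 and H2BC17 were under the floor on all 4 arrays.

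Histones also made outside S phase had ratios on both sides of 0 in CL1-0, from -1.22 to 0.91. Of 11 replication-independent histone genes read, 1 was at least 2-fold lower and 0 higher with AK4 vector, with a median log2 ratio of 0.07. The lower one was H3-3A, which encodes H3.3, at 24.5 and 10.6 (-1.22). The highest was CENPA, the centromeric H3, at 38.1 and 71.3 (0.91). H3-3A was read by an _s_at probe set and has near-identical copies, so this reading is uncertain, and it lost the 2-fold mark with a floor at the 60th percentile. With AK4 shRNA 0 of 11 passed 2-fold, 10 were below 0 and the median was -0.09. H3-3A (-0.63) and H2AJ, an H2A variant (-0.43), were farthest from 0. Between the control arrays the genes of H2AX, the variant phosphorylated at DNA breaks (2.57), and CENPA (2.28) were higher in CL1-5, and H2AJ (-1.46) was lower, with a median of 0.59.

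Genes for making histone mRNA, meaning transcription factors, 3′ end processing factors and the kinases and cyclins that start S phase, stayed within 2-fold in both AK4 comparisons. Of 23 read, 0 passed 2-fold in CL1-0 (median log2 ratio 0.09) or with AK4 shRNA (-0.02). Without _x_at and _s_at probe sets 1 gene of this list and 1 chaperone gene passed it in CL1-0. Since 1.16% of all genes passed 2-fold downward and 3.22% upward there, and fewer with AK4 shRNA, a count of 0 in a list this short is near the background. Farthest from 0 in CL1-0 were LSM11, of the U7 snRNP that cleaves histone pre-mRNA, at 39.4 and 73.4 (0.90), and HINFP, an activator of H4 genes, at 97.7 and 55.2 (-0.82). With AK4 shRNA they were HINFP (-0.52) and CCNE2, which encodes cyclin E2 (-0.33). Between the control arrays 5 were higher and 1 lower in CL1-5. CCNE2 (3.38), ERI1, an exonuclease of the histone mRNA end (1.95), ZNF473, a U7 partner (1.73), and CDC25A, an activator of CDK2 (1.43), were farthest up. Histone chaperones, which carry histones to DNA, gave 0 of 22 past 2-fold in both AK4 comparisons, with medians of 0.08 and -0.06. NAP1L1, an H2A-H2B chaperone (0.75), and HJURP, the CENPA chaperone (0.67), were highest in CL1-0. IPO4, an importin for H3-H4 (-0.31), and SET (-0.28) were lowest with AK4 shRNA. Between the control arrays 6 were higher and 2 lower, with HJURP at 3.67, HIRA, the H3.3 chaperone, at -2.31, and the CAF-1 subunits CHAF1B and CHAF1A at 2.21 and 1.496.

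In CL1-0, 13 of 20 mitosis genes and 4 of 38 measured DNA replication genes passed 2-fold upward with AK4 vector. Of 38 measured replication genes, 34 stayed within 2-fold, 10 were below 0, and 4 passed 2-fold upward and 0 downward (median log2 ratio 0.26): POLD1, the catalytic subunit of DNA polymerase delta (1.18), the helicase subunits MCM4 (1.15) and MCM3 (1.05), and the primase subunit PRIM2 (1.05). The 4 became 1 under quantile normalization and 2 with a common median. Of 20 mitosis genes, 13 were higher and 0 lower (median 1.29), led by NEK2 (1.90), KIF20A (1.88), DLGAP5 (1.83) and CCNA2 (1.68). The 13 became 11 without _x_at and _s_at probe sets and 9 with the mean of each gene's probe sets. With AK4 shRNA 0 of 39 replication genes passed 2-fold (median -0.05), with RFC3 (-0.35) and LIG1 (-0.33) farthest from 0. The 20 mitosis genes gave 0 past 2-fold (median 0.03), with CENPE and TOP2A farthest from 0, at -0.21 and 0.21. Between the control arrays 28 of 39 replication genes and 20 of 20 mitosis genes were higher in CL1-5, with medians of 1.57 and 2.65, and 0 of either list were lower. POLD1 (3.14), PRIM2 (2.85), CLSPN (2.79) and MCM3 (2.70) led the first list. KIF20A (5.16), DLGAP5 (4.96), MKI67 (4.09) and PLK1 (3.43) led the second. Their part in the histone readings was not tested.

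**Figure D4:**
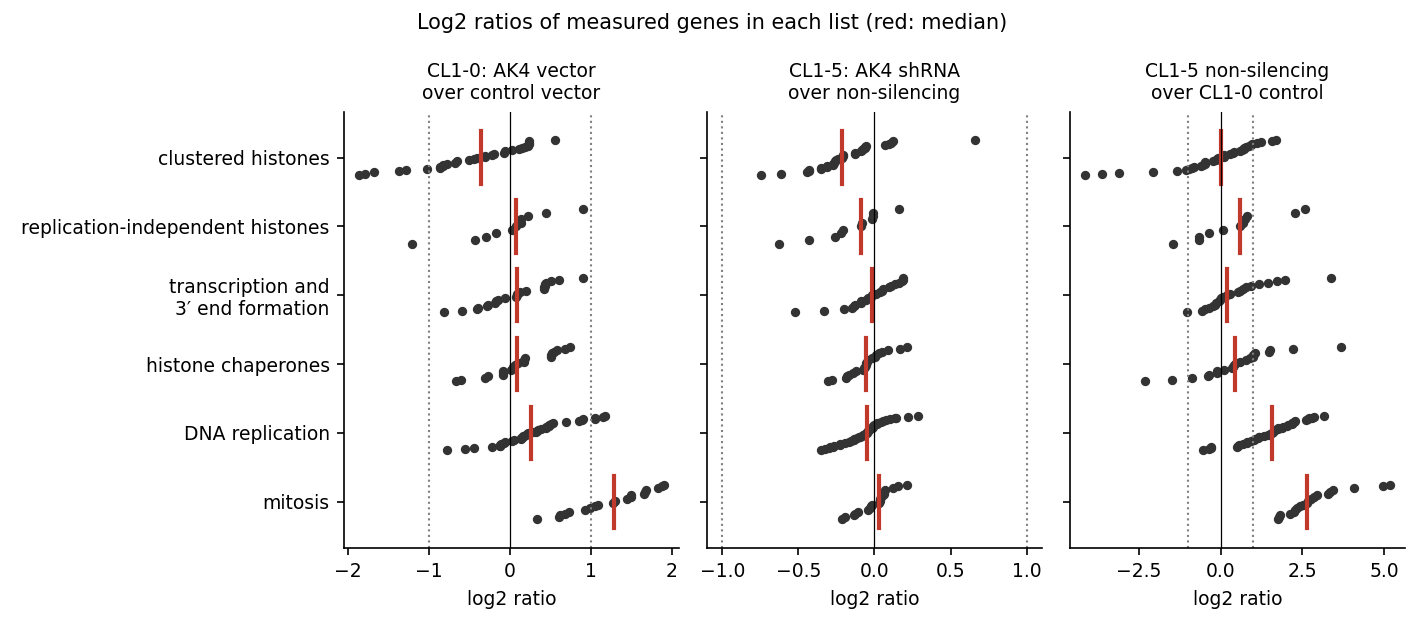
Log2 ratio of each measured gene in 6 lists for the 3 comparisons, 1 point per gene, with each list's median in red and 2-fold as dotted lines; the horizontal scales differ between panels. In CL1-0 the clustered histones have a median below 0 (-0.36 over genes), while the mitosis genes all lie above 0.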

How the data were processed

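RNA of 4 cultures, 1 per group, was read on 4 Affymetrix arrays of 1 colour, with biotin-labelled cRNA made from 6 ug of total RNA, per the labels' protocols. The deposited values are linear intensities per probe set without calls of presence. The authors used MAS5, per the submitters' processing notes. No version or target of scaling is named in the sources used here. Deposited medians were 6.07 and 6.23 for the CL1-0 arrays and 15.6 and 15.3 for the CL1-5 arrays.

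Each array was scaled to a common trimmed mean (2% off each end, leaving out 62 control probe sets). A floor was set at the 40th percentile of scaled values (6.93), and log2 was taken. A gene was read from its single-symbol probe set with the highest mean log2 level. Counts use 2-fold, and no test was made, since each group has 1 array. The number of arrays limits the precision.

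Symbols came from the platform annotation, with gene order and promoters from RefSeq (GRCh38.p14). The members and lists were chosen with earlier results of these data known. Values are given for every member at least 2-fold different with AK4 vector or shRNA, the 8 highest and 8 lowest between control arrays, the H1 genes, and up to 4 genes per list past 2-fold, or the 2 farthest from 0 where none passed; other members and the several-symbol examples were chosen after their values were seen. Alternatives were quantile, common-median, no scaling, loess, no floor with log2(value + 1), a floor at the 60th percentile, no _x_at or _s_at probe sets, and the mean of a gene's probe sets. Code was tested on simulated data. Python 3.11.15, pandas 2.3.3, numpy 2.4.6, scipy 1.17.1, statsmodels 0.14.6 and matplotlib 3.10.9 were used.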

Additional observations from a re-analysis of the deposited data

How the results depend on the processing

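With 1 array per group no difference has a replicate check, and dim probe sets give bounds only. In CL1-0, the count of histone probe sets at least 2-fold lower was 8, and became 3 without _x_at and _s_at probe sets and 13 with several-symbol probe sets added, a setting chosen after seeing the data; by gene it was 6, and 3 without _x_at and _s_at probe sets. Under every setting tried, 0 histone probe sets and 0 histone genes were at least 2-fold higher in CL1-0. The members' median log2 ratio there ran from -0.53 to -0.14. In CL1-5 the counts with AK4 shRNA were 0 under every setting tried, with the median between -0.25 and -0.13. H1-2, H4C8 and H2BC5 were past 2-fold in CL1-0 under every setting that could read them. Of the other lists in CL1-0, those past 2-fold were 0 replication-independent histones with a floor at the 60th percentile, 1 transcription or 3′ end gene and 1 chaperone without _x_at and _s_at probe sets, and 1 replication gene under quantile normalization or 2 with a common median, against 4. Mitosis genes past 2-fold in CL1-0 numbered 13, and ran from 9 with the mean of a gene's probe sets to 14 after loess. Between the control arrays, histone probe sets and genes higher in CL1-5 numbered 4 each, and 2 each with a common median, loess, a floor at the 60th percentile or without _x_at and _s_at probe sets, and 12 each as deposited. Probe sets lower numbered 7, and 11 under quantile normalization or with several-symbol probe sets, and 12 with a common median or loess; genes lower numbered 6, and 10 under quantile normalization and 11 with a common median or loess. In that comparison, list members past 2-fold were 5 replication-independent histones with a common median, and, as deposited, 6 of them, 12 transcription or 3′ end genes and 15 chaperones. Apart from the counting of fewer or more probe sets, the cause was not tested. No paired analysis was possible because each group holds 1 array.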
